A study of Mus musculus with 16 samples.

Results

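The 9 genes described here encode the 3 chains of fibrinogen (FGA, FGB and FGG), 3 clotting factors (F2, prothrombin; F5, factor V; F10, factor X), plasminogen (PLG) and 2 inhibitors of thrombin (SERPINC1, antithrombin; SERPIND1, heparin cofactor II). They were chosen by name, as the rows with these symbols in the deposited count tables, and are 9 of 26761 gene symbols. Symbols are printed in capitals, as in the files. Polyadenylated RNA of mouse embryos was sequenced in 16 libraries, 2 in each of 8 groups. At E7.5 the groups were embryonic (emVE) and extraembryonic (exVE) visceral endoderm. At E8.75 (13 somites) they were whole gut tube as bulk tissue, dissociated gut tube cells, and 4 pieces cut along the gut tube, called here the anterior section, anterior-midgut, midgut-posterior and the posterior section. No group carried an induced mutation or a drug treatment in the labels. The protocol names embryos with 1 copy of an Afp-GFP reporter, driven by alpha-fetoprotein sequences, as the source of dissociated gut tubes. The sources used here do not give the strain, the genotype of the other groups, the sex or the number of embryos per library. Gut tubes were freed from the torso with pancreatin and trypsin after the heads had been removed.

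Clotting ends when thrombin, made from prothrombin by activated factor X with activated factor V as its cofactor, cuts fibrinogen into fibrin. Antithrombin and heparin cofactor II block thrombin, and plasmin, made from plasminogen, dissolves fibrin. In the adult these proteins come mainly from hepatocytes. Before a liver exists, the visceral endoderm, an absorptive and secretory epithelium around the early embryo, makes many proteins of the same class, and some of its descendants enter the gut tube.

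The sequences upstream of the 3 fibrinogen genes are shown because these genes lie side by side and moved together in the libraries. RefSeq promoter entries on GRCm38.p6 were found for 8 of the 9 genes, all but PLG. Each sequence is the 250 bases before the annotated start, 5′ to 3′ on the gene's own strand. Capitals mark every exact match, on either strand, to letters searched for liver-type factors: TTNNGNAA (C/EBP), TGTTTNC (FOXA) and AGNNCAAAG (HNF4).
FGA, chr3:83025903-83026152, plus strand: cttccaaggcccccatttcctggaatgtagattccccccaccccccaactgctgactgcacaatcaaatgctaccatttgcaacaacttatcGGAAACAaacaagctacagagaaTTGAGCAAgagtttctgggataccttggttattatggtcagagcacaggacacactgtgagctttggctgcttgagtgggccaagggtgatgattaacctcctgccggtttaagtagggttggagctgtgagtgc
FGB, chr3:83049864-83050113, minus strand: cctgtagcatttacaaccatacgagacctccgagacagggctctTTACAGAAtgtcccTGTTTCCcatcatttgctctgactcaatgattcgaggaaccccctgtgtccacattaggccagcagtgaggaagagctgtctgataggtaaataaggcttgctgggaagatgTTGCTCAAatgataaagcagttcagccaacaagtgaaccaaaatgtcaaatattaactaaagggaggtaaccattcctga
FGG, chr3:83007474-83007723, plus strand: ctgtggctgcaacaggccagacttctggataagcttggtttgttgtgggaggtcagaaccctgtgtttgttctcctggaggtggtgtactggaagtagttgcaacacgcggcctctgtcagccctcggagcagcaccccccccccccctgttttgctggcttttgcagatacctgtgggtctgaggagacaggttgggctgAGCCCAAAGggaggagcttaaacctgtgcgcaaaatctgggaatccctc
FGA held the C/EBP letters from 135 to 128 bases before the start and the FOXA letters from 158 to 152. FGB held the C/EBP letters at 2 places and the FOXA letters from 192 to 186 bases before the start. FGG held only the HNF4 letters, from 49 to 41 bases before the start. In SERPIND1 the C/EBP letters (25 to 18 bases before the start) and the FOXA letters (21 to 15) overlapped. The 3 sets of letters were not in the windows of F2, F5, F10 and SERPINC1. Among 32536 promoter windows of this length in the same table, 36.8% held the C/EBP letters, 17.8% the FOXA letters and 5.68% the HNF4 letters. A match describes letters and is not a measured binding site. Letters for HNF1, another liver-type factor, are not reported here.

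Library totals ran from 57061536 to 84509973 counts. Levels are CPM, counts scaled to a common library size with edgeR's TMM factors, which were 0.787 and 0.775 in exVE and 0.997 to 1.10 in the other libraries. Relative to library totals, this scaling raised every log2 change of exVE against emVE by 0.378. Tests are edgeR quasi-likelihood tests over 17313 genes, and a gene passed where its p, adjusted by Benjamini-Hochberg over all of them, was under 0.05. All 9 genes were among those tested. The SE of a log2 change is its absolute value divided by the square root of the F statistic. It is an approximation, least reliable where counts are few. With 2 libraries a group, and no label saying whether they came from separate embryos, p-values measure only the spread between these libraries. Counting error is small beside that spread except near 0. In these tissue samples, fewer cells of a type and less RNA per cell cannot be told apart.

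FGA, FGB, FGG, F2, PLG and SERPINC1 had their highest mean level in exVE, lower levels in the middle of the gut tube and the lowest in the anterior section. In exVE, FGA stood at 101 and 91.2 CPM, FGB at 216 and 162 CPM, and FGG at 84.6 and 55.1 CPM. In emVE, FGA stood at 47.0 and 50.2 CPM, FGB at 94.8 and 79.1 CPM, and FGG at 40.9 and 36.5 CPM. For each chain both exVE libraries lay above both emVE libraries. F2, the thrombin precursor, reached 58.6 and 58.7 CPM in exVE, against 21.4 and 24.5 CPM in emVE. F10, the protease that cuts prothrombin, had 58.9 and 63.7 CPM in exVE, against 19.7 and 25.8 CPM in emVE. PLG had 80.4 and 80.1 CPM in exVE, against 41.9 and 43.2 CPM in emVE. These 3 genes again had exVE libraries that lay wholly above emVE. SERPINC1, the main inhibitor of thrombin in plasma, had 39.8 and 39.2 CPM in exVE, against 11.4 and 13.2 CPM in emVE. F5 had the opposite order, with 31.4 and 17.4 CPM in exVE and 81.3 and 69.3 CPM in emVE. SERPIND1 was near the lower limit of counting, at 0.0403 and 0.428 CPM in exVE, against 0.583 and 0.807 CPM in emVE.

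In the fit of all 16 libraries, only F5 passed between exVE and emVE. F5 fell by 1.63 on the log2 scale (SE 0.34, adjusted p = 0.00211), and it passed under every alternative run. Of all genes tested, 23.8% fell and 20.1% rose in this comparison, so a single gene of 9 lies below the background. The other genes had log2 changes of 0.98 ± 0.95 (SE) for FGA, 1.12 ± 0.73 for FGB, 0.85 ± 0.68 for FGG, 1.35 ± 0.53 for F2, 1.43 ± 0.76 for F10, 0.92 ± 0.45 for PLG and 1.68 ± 0.76 for SERPINC1. SERPIND1 had a log2 change of -1.56 ± 0.89. The spread behind these errors is shared by all groups and includes gut tube libraries in which these genes differed severalfold between replicates. With only the 4 E7.5 libraries in the fit, 8 of the 9 genes passed, 7 of them higher in exVE and F5 lower. That fit has 2 residual degrees of freedom, against 8 in the fit of all 16 libraries, so its spread is itself poorly known. In that fit, 25.0% of 15388 genes rose and 28.6% fell. The log2 change was 0.90 ± 0.10 (SE) for FGA, 1.27 ± 0.11 for F2, 1.34 ± 0.15 for F10, 1.60 ± 0.14 for SERPINC1 and -1.71 ± 0.25 for F5. The sizes were thus close in both fits, and the number of genes that passed was not.

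**Figure D1:**
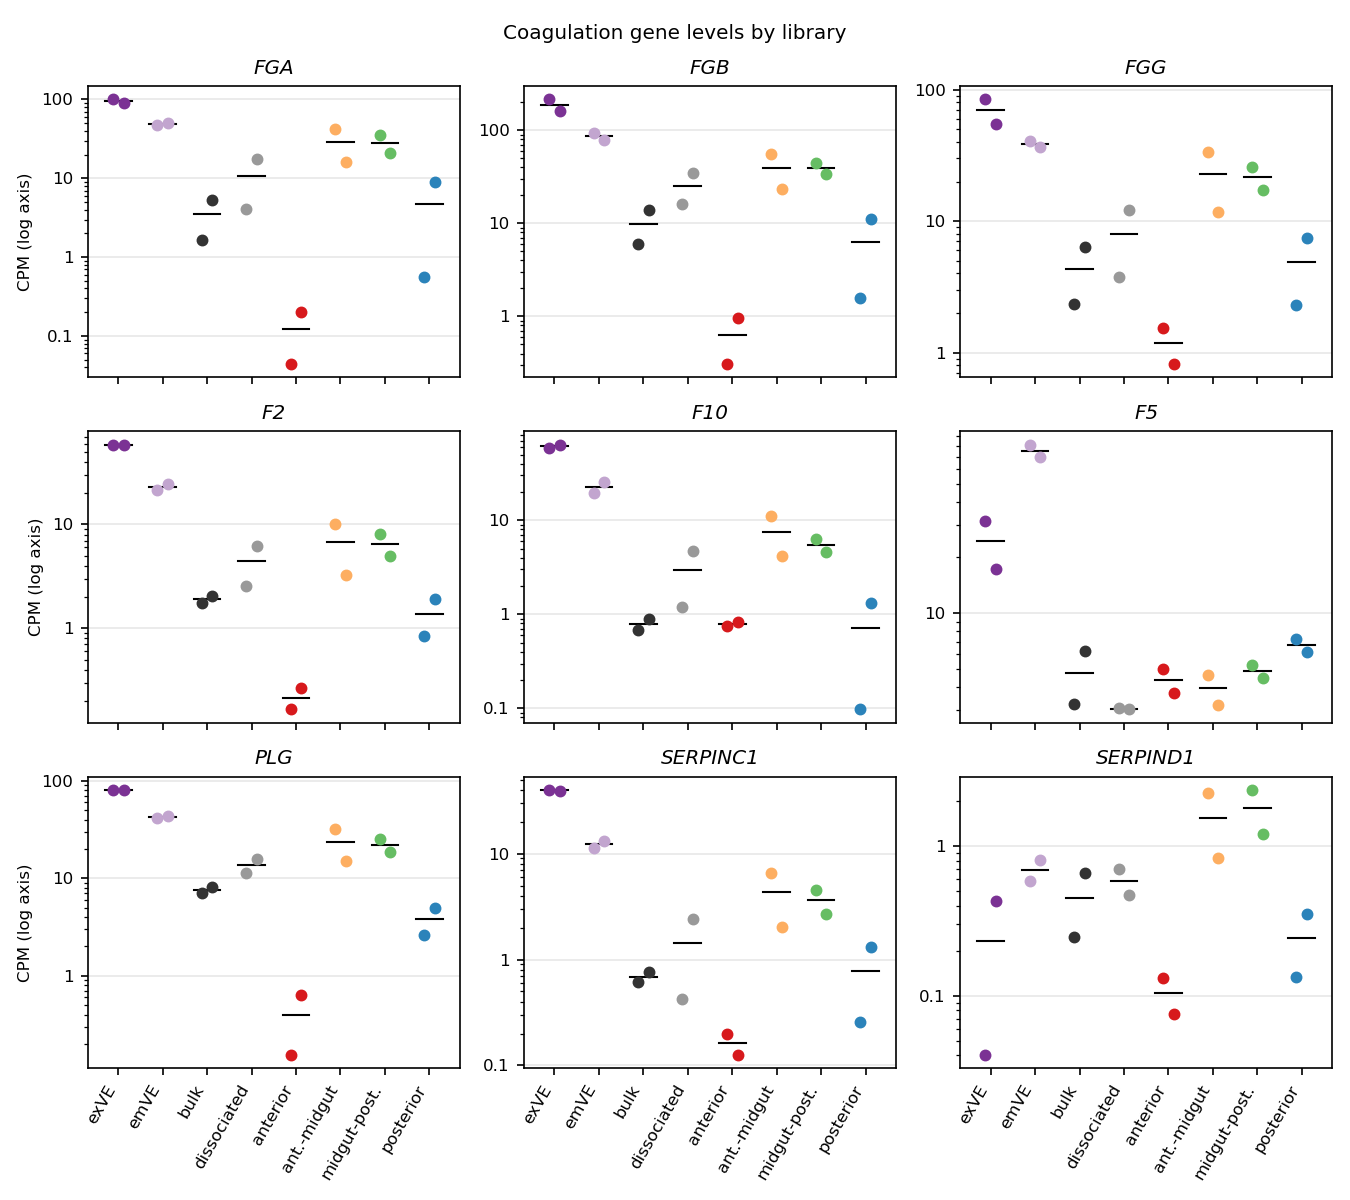
Level of each of the 9 genes (CPM, log axis, a separate range in each panel) in the 16 libraries by group; points are libraries and the line is the mean of the 2. FGA ranges from 0.0442 CPM in the anterior section to 101 CPM in exVE. F5 is highest in emVE, and SERPIND1 in midgut-posterior and anterior-midgut.

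Per kilobase of coding sequence, which allows levels of different genes to be set side by side, FGB led in exVE with 131 ± 26.4 CPM per kb (SD, n = 2). FGG (52.5 ± 15.7), F10 (41.4 ± 2.32), FGA (40.5 ± 2.84), PLG (32.9 ± 0.0745), F2 (31.6 ± 0.0179) and SERPINC1 (28.3 ± 0.329) followed, in the same unit. Each value used the longest annotated coding transcript, of 2367 bases for FGA and 1479 for F10. Their shortest have 1671 and 957 bases and would give higher values, so the order depends on the isoform. F5 (3.73 ± 1.52) and SERPIND1 (0.163 ± 0.191) were far lower. The E7.5 visceral endoderm thus held mRNA for 8 of the 9 genes at levels well above counting noise, and SERPIND1 was the exception.

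Along the gut tube the anterior section stood apart. FGA stood at 0.0442 and 0.202 CPM in the anterior section, 41.8 and 16.2 CPM in anterior-midgut, 35.0 and 20.6 CPM in midgut-posterior, and 0.562 and 9.01 CPM in the posterior section. FGB stood in the same order at 0.309 and 0.958, 55.0 and 23.4, 44.8 and 34.2, and 1.56 and 11.2 CPM. FGG stood at 1.52 and 0.819, 33.9 and 11.8, 25.9 and 17.3, and 2.30 and 7.49 CPM. For all 3 chains the anterior libraries lay below every other section. Anterior-midgut and midgut-posterior overlapped each other, and the posterior libraries lay between them and the anterior section. PLG stood at 0.155 and 0.630 CPM in the anterior section, 32.3 and 15.2 CPM in anterior-midgut, 25.5 and 18.6 CPM in midgut-posterior, and 2.61 and 4.97 CPM in the posterior section. F2 stood at 0.166 and 0.265, 10.2 and 3.28, 8.12 and 4.98, and 0.843 and 1.91 CPM in that order. Both genes repeated the order of the fibrinogen chains. F10 stood at 0.751 and 0.832 CPM in the anterior section, 10.98 and 4.18 CPM in anterior-midgut, 6.35 and 4.61 CPM in midgut-posterior, and 0.0977 and 1.33 CPM in the posterior section, so that for F10 the anterior and posterior sections overlapped. The inhibitors were lower in level. SERPINC1 reached 6.63 and 2.04 CPM in anterior-midgut against 0.199 and 0.126 CPM in the anterior section, and SERPIND1 reached 2.26 and 0.831 CPM against 0.133 and 0.0756 CPM. F5 ranged from 3.19 CPM in an anterior-midgut library to 7.29 CPM in a posterior library.

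Between anterior-midgut and the anterior section, 8 of the 9 genes rose, against 3.42% of all genes tested that rose and 2.17% that fell. The median log2 change of the 9 genes was 4.71, beside 0.0070 over all genes. FGA rose by 7.91 (SE 1.42, adjusted p = 0.00799), FGB by 5.97 (SE 0.95, adjusted p = 0.00405) and FGG by 4.28 (SE 0.80, adjusted p = 0.00934) on the log2 scale. F2 rose by 4.96, PLG by 5.94, SERPINC1 by 4.71, SERPIND1 by 3.86 and F10 by 3.26, with adjusted p-values from 3.21e-04 for PLG to 0.0462 for F10. F5 had a log2 change of -0.15 ± 0.34 (SE, adjusted p = 0.923). With single libraries left out, the rise ran from 7.07 to 9.30 for FGA and from 2.40 to 3.79 for F10. The count depends on single libraries. Fewer of the 9 genes passed without either anterior library or without the first anterior-midgut library, and fewer of all genes passed too. F2 and PLG passed in each of these fits.

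From anterior-midgut to midgut-posterior none of the 9 genes passed in edgeR or in DESeq2, and none had an unadjusted p under 0.05. Log2 changes ran from -0.47 (F10) to 0.31 (F5), with standard errors between 0.34 for F5 and 0.95 for FGA, and 0.497% of all genes passed. These errors leave room for differences of severalfold between the 2 sections. From the midgut-posterior to the posterior section, PLG alone passed, with a fall of 2.54 (SE 0.48, adjusted p = 0.0182). In this comparison 1.14% of all genes fell and 1.13% rose. The fall in PLG did not pass without either midgut-posterior library, without the first posterior library, or with only these 2 sections in the fit. FGA (-2.54 ± 1.01), FGB (-2.63 ± 0.78), FGG (-2.14 ± 0.72), F2 (-2.25 ± 0.56), F10 (-2.94 ± 0.85), SERPINC1 (-2.20 ± 0.81) and SERPIND1 (-2.87 ± 0.88) had log2 changes of similar size that did not pass. DESeq2 gave 5 of the 9 genes, all lower, but it also passed 1287 of all genes, against 392 in edgeR. Without the second posterior library the log2 change was -5.63 for FGA and -3.08 for PLG. Without the first posterior library it was -1.63 for FGA and -2.15 for PLG.

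Between the 2 ends of the gut tube, FGA, FGB, F2 and PLG passed, all higher in the posterior section, where 4.03% of all genes rose and 3.89% fell. Their log2 changes were 5.31 ± 1.36 (SE) for FGA, 3.35 ± 0.88 for FGB, 2.68 ± 0.65 for F2 and 3.29 ± 0.54 for PLG. FGG had a log2 change of 2.05 ± 0.75 and SERPINC1 of 2.25 ± 0.93, neither of which passed, and F10 had -0.15 ± 0.85. The count fell without either anterior library or without the second posterior library, and fewer of all genes passed there too. The count was 0 with only these 2 sections in the fit. In that fit 941 of all genes passed, against 1370 in the fit of all 16 libraries. An F-test over all 4 sections passed for 8 of the 9 genes, all but F5, and for 12.9% of all genes. Fewer of the 9 genes, and fewer of all genes, passed this F-test without either anterior library. The same held without the first anterior-midgut, the first midgut-posterior or the first posterior library. With only the 4 sections in the fit, 7 of the 9 genes and 2666 of all genes passed. The comparisons between sections share libraries and are not independent of each other.

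**Figure D2:**
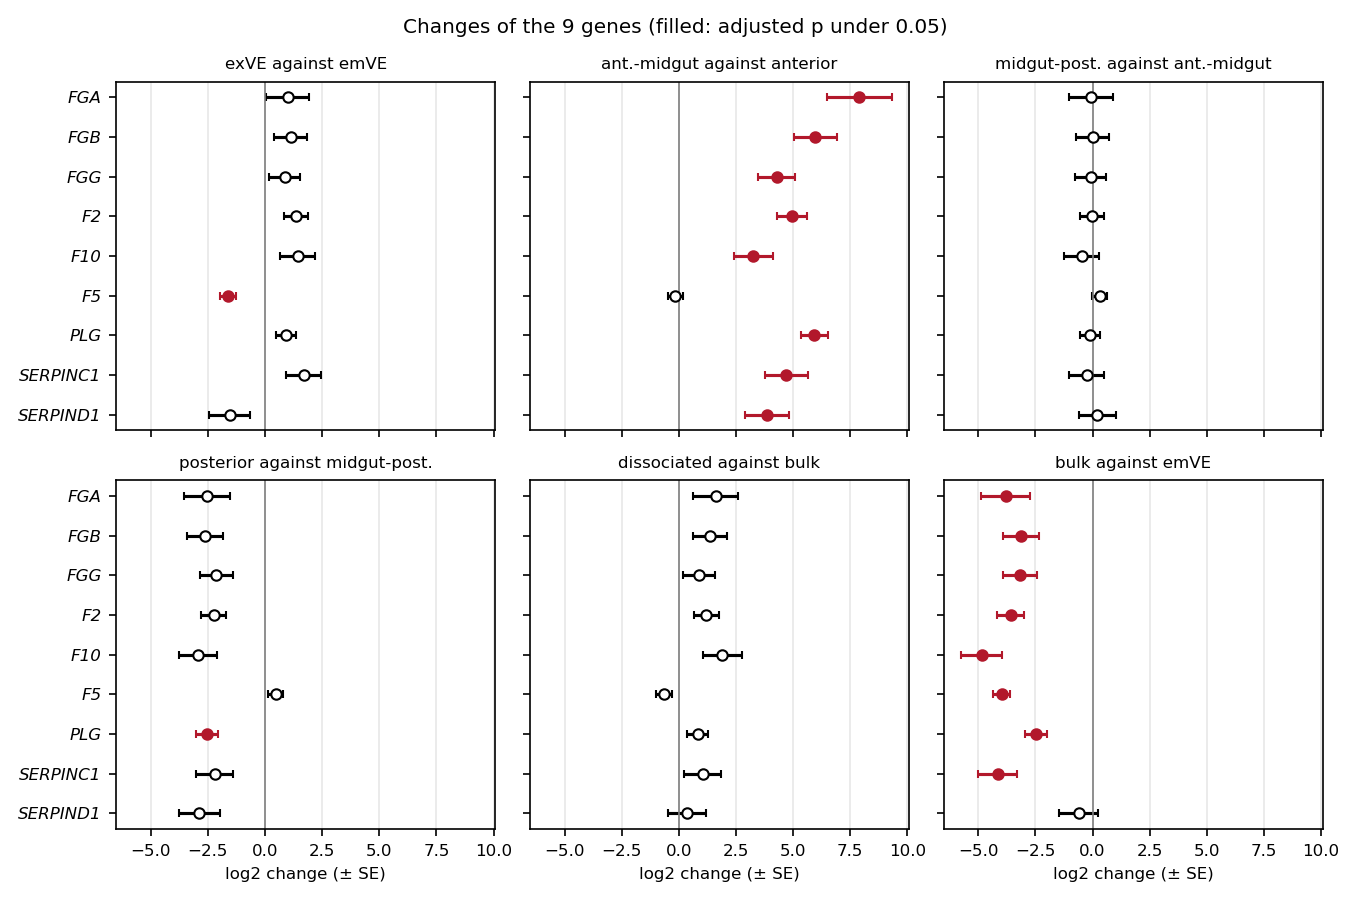
Log2 change (± SE, edgeR) of the 9 genes in 6 comparisons; each panel names the first group against the second, and filled red points passed at an adjusted p under 0.05. Anterior-midgut against the anterior section shows 8 filled points, F5 stays near 0 there and is the only filled point for exVE against emVE.

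The 3 chains kept similar proportions in most libraries. Fibrinogen is a dimer that needs each chain in equal number, and the proportions below concern mRNA only. Per kilobase of coding sequence, FGB made up 58.5% and 58.4% of chain mRNA in exVE, 56.5% and 53.0% in emVE, and from 45.1% to 71.1% in all libraries but 2. FGA made up 16.6% to 22.6% in the visceral endoderm, in anterior-midgut and in midgut-posterior. The anterior section differed. FGG made up 83.1% and 45.2% of chain mRNA there, and 56.7% in the first posterior library, against 18.0% to 32.8% in the other 13 libraries. These 3 libraries held the fewest chain counts, 170, 157 and 362. As a plain share of counts, FGG had 138 of 170 (81.2%, exact Clopper-Pearson 95% interval 74.5 to 86.8%), 65 of 157 (41.4%, 33.6 to 49.5%) and 188 of 362 (51.9%, 46.7 to 57.2%). In the second posterior library FGG had 27.1% (25.2 to 29.0%). Intervals cover counting error only, and reads are not independent molecules. The higher share of FGG was therefore larger than counting error, and it was read from libraries where FGA gave 4, 16 and 46 counts. The coding length of FGA depends on the isoform (2367 bases in the longest and 1671 in the shortest of 2 annotated coding transcripts), and the longest was used.

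**Figure D3:**
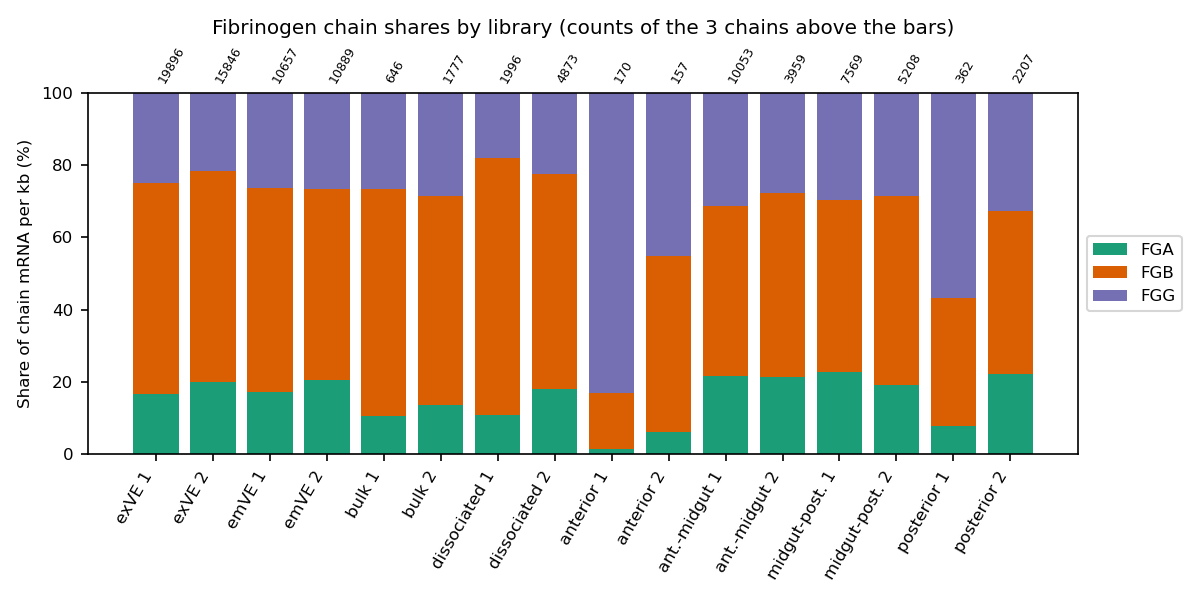
Share of FGA, FGB and FGG in the sum of the 3 chains (CPM per kb of coding sequence, in percent) in each of the 16 libraries, with the counts of the 3 chains above each bar. FGB is the widest band in most libraries, and FGG is widest in the first anterior (83.1%) and the first posterior (56.7%) library.

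In 5 of the 6 gut tube groups, at least 7 of the 9 genes differed between replicates in the same direction. All 9 were higher in the first anterior-midgut library, by a median of 2.63-fold, and all 9 in the first midgut-posterior library, by a median of 1.498-fold. In the posterior section 8 of 9 were higher in the second library, by up to 16.1-fold for FGA. In bulk tissue all 9 were higher in the second library, and in dissociated gut tube 7 of 9. The anterior section had no common direction, with 4 of 9 higher in the first library and folds of up to 4.57. In emVE the fold between libraries was at most 1.39. A list of 10 visceral endoderm markers (AMN, CUBN, LRP2, DAB2, RHOX5, MTTP, CTSH, AFP, TTR and APOA4), all detected in every group, moved the same way. Its summed level was 4206 and 1542 CPM in anterior-midgut, 3358 and 2176 CPM in midgut-posterior, 214 and 891 CPM in the posterior section, and 416 and 792 CPM in bulk tissue. In the anterior section the sum was 271 and 277 CPM, and in exVE it was 26820 and 29900 CPM. AFP, TTR and APOA4 are also on the list of plasma carrier proteins below, so this sum is not separate from that list. The part of these markers in the differences of the coagulation genes was not tested. The 9 platelet and megakaryocyte markers summed to between 1.61 and 13.1 CPM and the 7 macrophage markers to between 0.531 and 10.9 CPM, with GP6 at 0 in 6 of the 8 groups and PTPRC at 0 in 5. The 7 hepatoblast markers, led by HNF4A and TBX3, summed to 1061 and 1139 CPM in exVE, 404 and 448 CPM in emVE, 186 and 107 CPM in anterior-midgut, and between 79.3 and 134 CPM in the other libraries. ALB, albumin, the leading product of hepatocytes, is on that list and stayed between 0 and 1.66 CPM. The 8 endothelial markers summed to between 330 and 878 CPM in the gut tube libraries, between 58.9 and 110 CPM in exVE, and between 31.0 and 46.6 CPM in emVE. The part of these lists in the differences of the coagulation genes was not tested either.

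Set against CUBN and AMN, the 2 parts of the receptor with which visceral endoderm takes up proteins, the coagulation genes were not in a constant proportion. This pair was chosen after the values had been seen, because DAB2 and LRP2 are also expressed in the anterior section. The 8 genes without F5 summed to 5.98 and 4.77 CPM per 100 CPM of the receptor pair in exVE and to 7.97 and 7.68 in emVE. They summed to 24.0 and 29.1 in anterior-midgut, 28.5 and 28.4 in midgut-posterior, and 79.1 and 29.4 in dissociated gut tube. Bulk tissue had 123 and 36.0, and the second posterior library 25.9. The receptor pair itself ran from 3482 to 11540 CPM at E7.5 and from 3.33 to 803 CPM in the gut tube, so the ratios are not read at a shared receptor level. In the anterior section (75.0 and 113) and the first posterior library (251) the receptor pair itself was at only 3.33 to 4.37 CPM. These ratios hold for this pair only. The same 8 genes summed to 639 and 550 CPM in exVE, where the 10 visceral endoderm markers summed to 26820 and 29900 CPM. In anterior-midgut they summed to 193 and 76.9 CPM (markers 4206 and 1542). The posterior section had 8.36 and 37.6 CPM (markers 214 and 891), and the anterior section 3.28 and 3.91 CPM (markers 271 and 277).

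**Figure D4:**
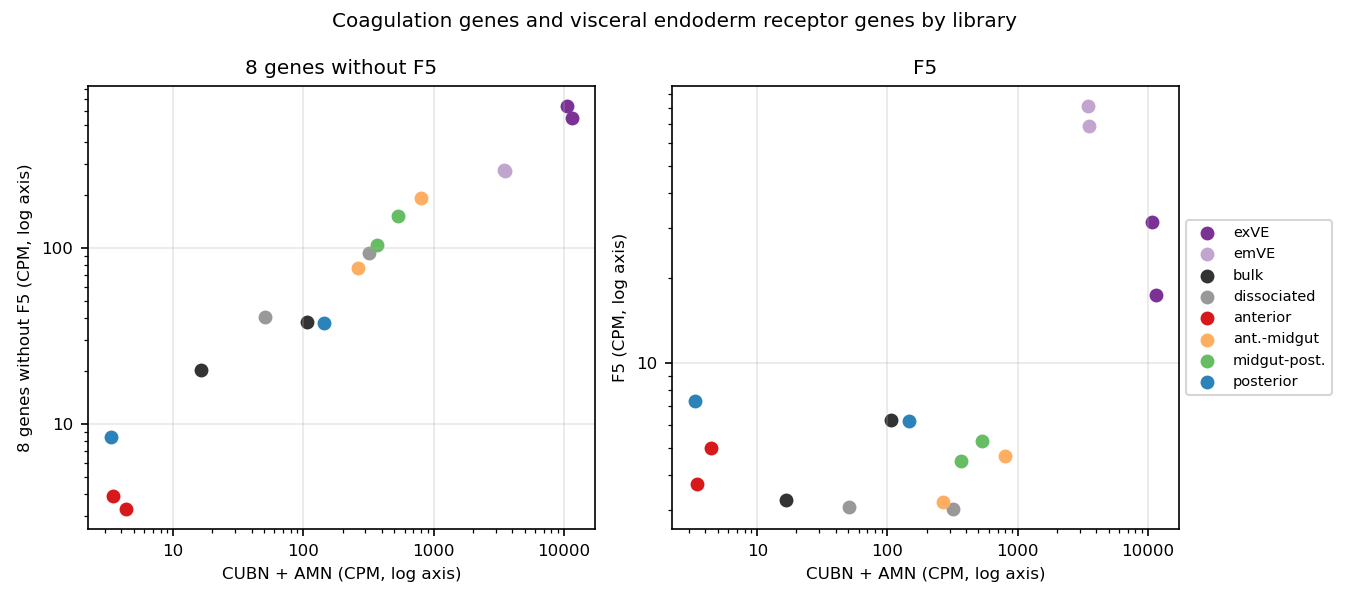
Summed level of the 8 genes without F5 (left) and of F5 (right) against CUBN plus AMN in each of the 16 libraries (CPM, log axes); points are libraries, coloured by group. The 8 genes rise with the receptor pair across libraries, and F5 stays between 3.03 and 7.29 CPM in all gut tube libraries.

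For FGA, FGB and PLG, whole gut tubes had mean levels between those of the anterior section and anterior-midgut. In bulk tissue FGA stood at 1.63 and 5.34 CPM, FGB at 5.97 and 13.8 CPM, and PLG at 7.07 and 8.17 CPM. In dissociated cells FGA stood at 4.07 and 17.3 CPM, FGB at 16.2 and 34.7 CPM, and PLG at 11.3 and 15.9 CPM. FGB and PLG were higher in both dissociated libraries than in both bulk libraries, and FGA overlapped. F2 (2.58 and 6.21 CPM dissociated, 1.76 and 2.05 CPM bulk) and F10 (1.21 and 4.71 CPM dissociated, 0.678 and 0.890 CPM bulk) did not overlap either. None of the 9 genes passed between dissociated and bulk gut tube in edgeR or DESeq2, and F2 and F10 had an unadjusted p under 0.05 (0.0477 and 0.0418). Over all genes 0% passed in edgeR, with 2809 at an unadjusted p under 0.05, and 269 genes passed in DESeq2. Without the first dissociated library 2 of the 9 genes and 4754 of all genes passed. Log2 changes of the 9 genes ran from -0.64 ± 0.34 (SE) for F5 to 1.91 ± 0.84 for F10.

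Against the visceral endoderm of E7.5, bulk gut tube of E8.75 had less mRNA of 8 of the 9 genes. Stage and tissue differ together here and cannot be told apart. Against emVE, F10 fell by 4.86, SERPINC1 by 4.16, F5 by 3.98, FGA by 3.80, F2 by 3.59, FGG by 3.16, FGB by 3.13 and PLG by 2.48 on the log2 scale, with adjusted p-values from 2.37e-05 for F5 to 0.0152 for FGA. SERPIND1 had a log2 change of -0.61 ± 0.84 (SE) and did not pass. Of all genes tested, 16.9% fell and 21.7% rose. Without the first bulk library the 3 fibrinogen chains no longer passed, which left F2, F5, F10, PLG and SERPINC1. Against exVE the same 8 genes fell, where 26.0% of all genes fell and 35.7% rose. At the 2 ends of their range, F5 fell by 2.36 and F10 fell by 6.28 on the log2 scale. All 8 passed in each alternative run, and the 2 comparisons share the bulk libraries.

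The other genes of the clotting system were taken from lists of known roles. Of 12 other procoagulant factors only 7 had enough counts to be tested, F13A1 among them. F9, F11, F12, F13A1, F13B and KLKB1 had group means of at most 0.106 CPM. F7, the factor X activator that works with tissue factor, stood at 3.37 ± 0.660 CPM (SD, n = 2) in exVE, 2.65 ± 0.0162 CPM in emVE and 0.199 ± 0.156 CPM in the anterior section. F3, tissue factor itself, had the reverse order between sections, with 8.22 ± 0.482 CPM in the anterior section against 3.90 ± 0.373 CPM in anterior-midgut. In the F-test over all 4 sections F3 did not pass (adjusted p = 0.0766). Between the anterior section and anterior-midgut it fell by 1.07 (adjusted p = 0.0482). This fall did not pass with any single library of these groups left out. KNG1, a kininogen, rose by 5.07 there (adjusted p = 0.00319), and these were the 2 procoagulant genes of 7 that passed, where 3.42% of all genes rose and 2.17% fell. Without either anterior library, or without the first anterior-midgut library, 1 of the 7 passed. VWF, an endothelial carrier of factor VIII, was highest in the posterior section at 86.6 ± 7.496 CPM and lowest in exVE at 3.06 ± 2.23 CPM. Between exVE and emVE it was the procoagulant gene of 7 that passed, with a fall of 2.32 (adjusted p = 0.00223), where 23.8% of all genes fell and 20.1% rose.

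Of 9 other anticoagulants 5 rose and none fell in anterior-midgut against the anterior section, with a median log2 change of 2.07 beside 0.0070 over all genes, of which 3.42% rose. SERPINA10, the protein Z dependent inhibitor of factor X, rose by 5.52 (SE 0.90, adjusted p = 0.00497). PROZ, its cofactor, rose by 2.67, TFPI2 by 2.07 and TFPI, the inhibitor of the tissue factor pathway, by 1.36, with adjusted p-values of 0.00896, 0.00934 and 0.00815. Without the first anterior library or the first anterior-midgut library 1 of the 9 passed, and without the second anterior library 2. TFPI was at 122 ± 4.17 CPM in exVE, against 65.0 ± 3.46 CPM in emVE. Between exVE and emVE, PROS1, TFPI and TFPI2 rose and THBD, thrombomodulin, fell, from 1.95 ± 0.779 to 0.0792 ± 0.00202 CPM. The median of the 9 was 0.91, beside 0.00 over all genes, and without the second emVE library 2 of the 9 passed. With 20.1% of all genes higher and 23.8% lower, 4 of 9 is near the background.

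Genes of fibrinolysis passed in both directions. SERPINF2, the inhibitor of plasmin, and CPB2, which protects fibrin from plasmin, rose between the anterior section and anterior-midgut by 5.21 and 6.16 (adjusted p = 0.00275 and 0.00141). SERPINF2 had 133 ± 9.25 CPM in exVE, 49.4 ± 10.9 CPM in emVE, 43.1 ± 24.1 CPM in anterior-midgut and 1.18 ± 0.976 CPM in the anterior section. With S100A10 they were the 3 of 9 tested genes that passed, and at least 2 passed with any library of these groups left out. Of all genes 3.42% rose and 2.17% fell there. Between exVE and emVE 6 of the 9 fell and none rose, with a median log2 change of -0.77, where 23.8% of all genes fell and 20.1% rose. Without either exVE library or the first emVE library 4 of the 9 fell, and without the second emVE library 5. PLAT, the tissue activator of plasminogen, fell by 3.65 (SE 0.20, adjusted p = 5.33e-07), from 40.8 ± 3.65 CPM in emVE to 3.26 ± 0.923 CPM in exVE. ANXA2, a cell surface receptor for PLAT and plasminogen, fell by 2.32 and SERPINE2 by 1.05. PLG itself was at 80.3 ± 0.182 CPM in exVE, against 42.5 ± 0.921 CPM in emVE.

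The protease-activated receptors carry the signal of thrombin and related proteases into cells. F2R, a thrombin receptor, had 47.8 ± 28.4 CPM in exVE, against 48.3 ± 6.75 CPM in emVE, and stood at 142 to 229 CPM as the group mean in gut tube samples. It rose by 1.79 in bulk gut tube against emVE (adjusted p = 0.00173), and F2RL3 rose by 4.11 (adjusted p = 3.98e-04). Of the 4 receptors 2 rose there, beside 21.7% of all genes and a median log2 change of 0.083 over all genes. F2RL1 alone differed between anterior-midgut and the anterior section, with a rise of 1.88 (adjusted p = 0.0205). This rise did not pass without either anterior library or without the first anterior-midgut library. Of all genes 3.42% rose and 2.17% fell in this comparison, to which GGCX below also belongs. Prothrombin, factor X and several anticoagulants need carboxylation by GGCX with vitamin K recycled by VKORC1, and factor V leaves the cell through LMAN1 and MCFD2. Of these 4 genes and VKORC1L1, a relative of VKORC1, LMAN1 (0.56), MCFD2 (0.37) and VKORC1 (1.22) rose in exVE against emVE on the log2 scale. Without the second exVE library or the first emVE library 1 of the 5 passed, and 20.1% of all genes rose in this comparison. VKORC1 had 58.8 ± 5.83 CPM in exVE, 25.3 ± 3.17 CPM in emVE and 5.26 ± 0.400 CPM in the anterior section. GGCX alone passed between anterior-midgut and the anterior section, with a rise of 0.80 (adjusted p = 0.022), and it did not pass without any of the same 3 libraries.

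**Figure D5:**
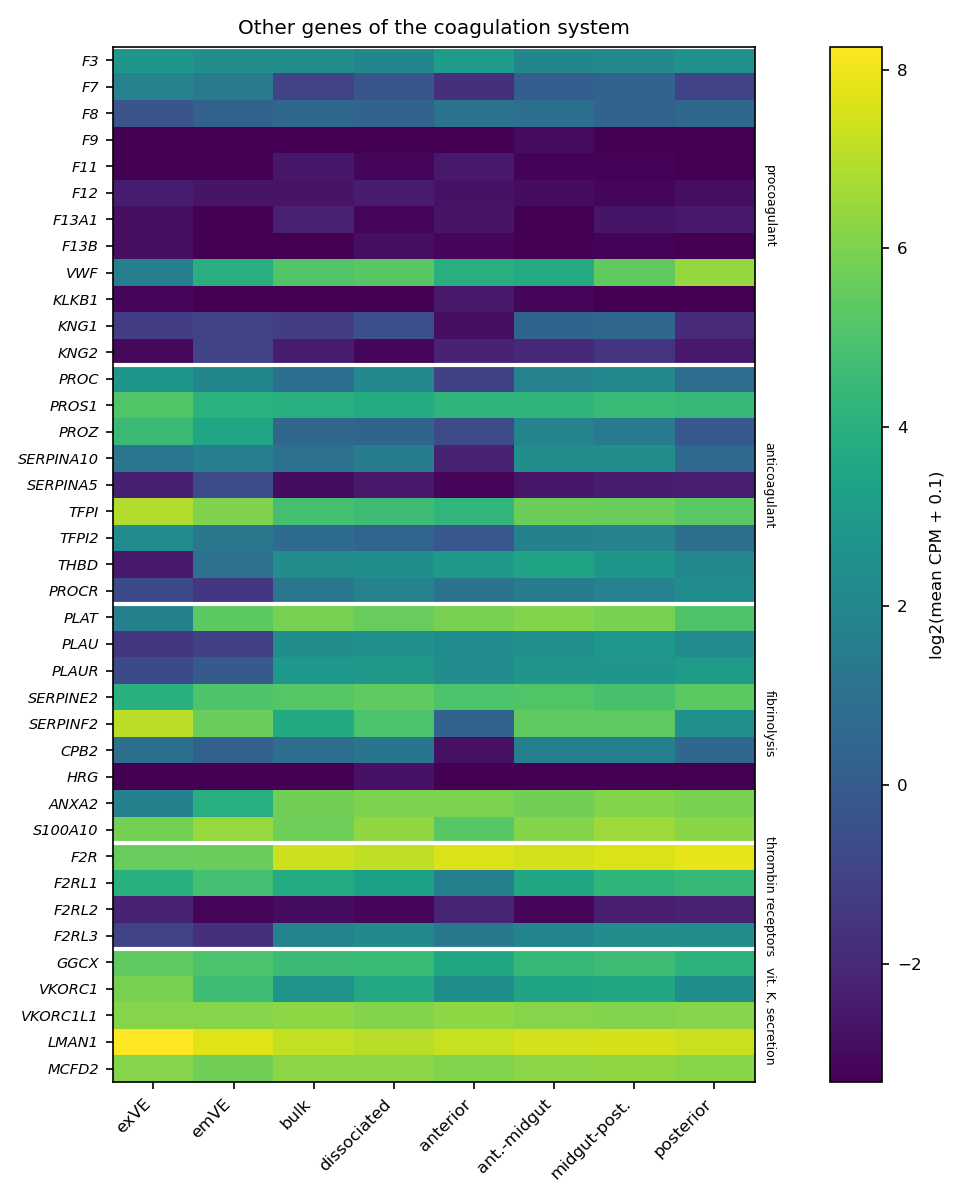
Group means of other genes of the clotting system, coloured by log2(mean CPM + 0.1), with the 5 lists separated by white lines. The anterior column is dark for KNG1, SERPINA10, SERPINF2 and CPB2, the exVE column is dark for THBD and lower than emVE for PLAT, and F2R is brighter in the 6 gut tube columns.

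Genes for other secreted plasma proteins and for liver-type transcription factors were counted in the same libraries. Of 24 carrier proteins 13 rose and none fell between anterior-midgut and the anterior section, with a median log2 change of 3.42. Of all genes 3.42% rose and 2.17% fell in this comparison, to which the counts of complement genes and transcription factors below also belong. RBP4 (retinol transport) rose by 6.24, AMBP by 4.67, AFP by 7.45 and APOM by 6.95. Without the first anterior library 2 of the 24 passed, without the second 7, and without the first anterior-midgut library 4. Of 9 complement genes CFB and CFI rose, by 3.72 and 3.62, and 1 of the 9 passed without the first anterior or the first anterior-midgut library. Of 16 transcription factors 8 rose and none fell. HNF4A rose by 6.21 and FOXA3 by 2.96, and without the first anterior library 4 of the 16 passed. HNF4A, which binds promoters of many clotting genes in liver, stood at 786 ± 44.4 CPM in exVE, 275 ± 19.8 CPM in emVE, 45.6 ± 30.4 CPM in anterior-midgut and 0.627 ± 0.575 CPM in the anterior section. In exVE against emVE, 4 of the 16 factors rose, TBX3 by 1.37 among them, and 4 fell, beside 20.1% and 23.8% of all genes. FOXA1 fell by 3.83 (adjusted p = 1.03e-05), FOXA2 by 1.19, PROX1 by 1.11 and HHEX by 0.97. The count of 8 was 6 without the first exVE library and 5 without the second or without either emVE library.

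Across the 8 group means, log2 CPM of 10877 genes with a highest mean of at least 3 was compared with the mean of the 3 fibrinogen chains. The highest Pearson r was that of APOA1 at 0.998, followed by APOM (0.996), TTR (0.994), SLC23A3 (0.994), RBP4 (0.993), SLC2A2 (0.993), MUC13 (0.992) and PDZD3 (0.991). In all, 155 genes had an r over 0.9, and with 8 points that come from 2 stages and share their scaling these values are a description only. APOA1 stood at 3799 CPM as the mean in exVE and at 1.70 CPM in the anterior section. Among the other 6 coagulation genes, r with the chains was 0.988 for PLG, 0.981 for F2, 0.956 for SERPINC1, 0.872 for F10, 0.553 for F5 and 0.477 for SERPIND1. Between pairs of the 7 genes without F5 and SERPIND1, r ran from 0.811 to 0.994. For F5 with the other 8 genes r ran from -0.118 to 0.694, and for SERPIND1 with the 7 genes from 0.212 to 0.525.

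The order of levels differed most for F5 and SERPIND1. F5 ran from emVE (75.3 ± 8.46 CPM, SD, n = 2) and exVE (24.4 ± 9.96 CPM) to the posterior section (6.74 ± 0.779 CPM), with dissociated gut tube last (3.06 ± 0.0410 CPM). The midgut-posterior, bulk, anterior and anterior-midgut groups overlapped with their neighbours in that order. SERPIND1 was highest in the midgut-posterior (1.79 ± 0.827 CPM) and anterior-midgut (1.55 ± 1.01 CPM) sections, which overlapped, and these lay above emVE (0.695 ± 0.158 CPM). Its means in the posterior section (0.243 CPM) and the anterior section (0.104 CPM) were below emVE, and the sections were not tested against visceral endoderm. For FGA, FGG, F2, F10, PLG and SERPINC1 the first 4 places were exVE, emVE, anterior-midgut and midgut-posterior, and for FGB the last 2 were exchanged. The places of those 2 sections overlapped in each case.

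The genes next to the fibrinogen genes did not share their order. In the reference the neighbours are RBM46 and LRAT on the side of FGG, and PLRG1 and GM10710 on the side of FGB. PLRG1, a splicing factor, stood between 103 CPM in emVE and 138 CPM in dissociated gut tube as group means. RBM46 had at most 1.61 CPM, LRAT at most 0.362 CPM and GM10710 at most 4 counts in any library. Exons of FGG overlap the antisense gene GM30097 by 115 bases and those of F5 overlap GM16548 by 262, and these genes had at most 12 and 8 counts. SERPINC1 overlaps ZBTB37, on the opposite strand, by 2942 bases. ZBTB37 stood at 9.23 to 19.0 CPM as group means. Whether the counting used strand is not given in the sources used here, so the low SERPINC1 values of the anterior section are uncertain. The same holds for bulk tissue (0.616 and 0.761 CPM), the first posterior library (0.256 CPM) and the first dissociated library (0.422 CPM).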

How the data were processed

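Polyadenylated RNA was measured in 16 mouse libraries. The authors deposited raw counts per gene symbol, which differ in total between libraries and are not normalized. Reads were aligned with STAR, per the submitters' processing notes. For its version, the counting program, the genome build, the annotation and the use of strand, the entry is: not given in the sources used here. Each file had 26795 entries; 32 symbols listed more than once were summed. Rows without a gene name numbered 0.

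Groups came from the sample titles. The filter was filterByExpr with the groups given, a minimum count of 10 and a minimum total of 15. All 16 libraries entered 1 edgeR 4.0.16 quasi-likelihood fit in R 4.3.3, with a coefficient per group, TMM factors and 8 residual degrees of freedom, two-sided, adjusted by Benjamini-Hochberg over 17313 genes. These steps were first tested on simulated counts in which 200 genes were changed. The 9 genes and all gene lists were chosen with earlier results of these data known. Named genes are the 9 genes in every comparison, up to 4 genes with the smallest adjusted p of each list in the comparison discussed, the 8 genes most like the fibrinogen chains, and 2 protein-coding neighbours on each side; other genes named were chosen after their values were seen, and a few genes of the lists are not reported here by name. Coding lengths came from GENCODE M21 and promoters from RefSeq. Replicates of each group differed by far more than sampling noise (chi-square per gene of at least 30.4) and were kept apart.

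Alternatives were RLE size factors, library totals, no filter on low counts, a replicate block, a fit of the 2 compared groups alone, leaving out in turn each library of those groups, and DESeq2 1.42.0. Counts of the gene lists without single libraries were added after the data were seen.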

Additional observations from a re-analysis of the deposited data

How the results depend on the processing

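Of the 9 genes, the number that passed between exVE and emVE was 1, and 2 with RLE size factors or DESeq2, 8 with only the compared groups, and 1 to 2 with single libraries left out. For anterior-midgut over anterior it was 8, and 2 to 8 with libraries left out. For posterior over midgut-posterior it was 1, and 2 with no filter on low counts, 0 with only the compared groups, 5 with DESeq2 and 0 to 5 with libraries left out. For posterior over anterior it was 4, and 0 with only the compared groups and 1 to 4 with libraries left out. With libraries left out it was 4 to 8 for any difference among the sections, 0 to 2 for dissociated against bulk gut tube, 5 to 8 for bulk gut tube against emVE and 8 to 9 against exVE. The cause was not tested. Where 1 library of a group is left, it is taken to vary as the other groups do.

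Numbers shared by libraries across groups are not explained in the labels. Deviations of same-numbered libraries correlated between -0.0899 and 0.186 across genes. With the replicate block the count was 6 for anterior-midgut over anterior and 3 for posterior over anterior, and it equalled the value without the block in the other comparisons.

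Signs reversed for values that did not pass. FGB between the midgut-posterior and anterior-midgut sections (0.012) was -0.0042 on library totals and -0.045 with the replicate block. With libraries left out, log2 changes between these sections ran from -0.59 to 0.78 for FGA, -0.48 to 0.76 for FGB, -0.65 to 0.87 for FGG, -0.63 to 0.996 for F2, -1.003 to 0.39 for F10, -0.55 to 0.54 for PLG, -0.87 to 0.83 for SERPINC1 and -0.37 to 1.10 for SERPIND1. They ran from -0.45 to 0.10 for F5 in anterior-midgut over anterior and from -2.995 to 0.75 for F10 in posterior over anterior. For dissociated against bulk gut tube they ran from -0.20 to 1.76 for FGG, -0.71 to 1.82 for SERPINC1 and -0.17 to 1.25 for SERPIND1.

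Over all genes, the number that passed ranged from 201 to 1708 (968) for anterior-midgut over anterior, 6 to 437 (86) for midgut-posterior over anterior-midgut, 17 to 1287 (392) for posterior over midgut-posterior, 615 to 2259 (1370) for posterior over anterior, 1244 to 3689 (2236) for the 4 sections, 0 to 4754 (0) for dissociated against bulk gut tube and 4242 to 7667 (6688) for bulk gut tube against emVE, with the value of the fit of all libraries in parentheses. Depth limits SERPIND1 most in exVE (2 and 22 counts) and in the anterior section (12 and 6). It limits SERPIND1 least in anterior-midgut (174 and 64) and midgut-posterior (170 and 87). Depth also limits the fibrinogen chains in the anterior section.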
